A study of Mus musculus with 18 samples.

Results

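The cytosolic ribosomal protein (RP) genes were taken as the rows of the deposited TPM table whose symbol was Rpl or Rps followed by a number and at most 1 letter out of a, l and x, or was Rplp0, Rplp1 or Rplp2, and whose mean over the 18 samples was at least 1 TPM (a unit of transcript abundance, a read count per gene length expressed as a share of each library). Of 54838 rows, 82 had such a symbol and 79 reached that mean, 31 of the small and 48 of the large subunit. The members were thus selected on their mean TPM, and their levels are given as a description. The symbol was not always that of a coding gene: 76 members were annotated as protein coding, while Rpl6l and Rpl32l were processed pseudogenes and Rps4l was a transcribed processed pseudogene in GENCODE M21. The other 3 symbols were below 1 TPM, namely Rpl3l at 0.162, Rpl39l at 0.0477 and Rpl10l at 0 TPM.

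Bulk RNA came from livers of C57BL/6 male mice aged 36 weeks, with 3 samples in each of 6 groups. GKO mice lack the miR-181ab1 cluster (Mir181a-1 and Mir181b-1) throughout the body and WT mice carry it. Tumours and the non-tumour liver around them were from mice of either genotype given the liver carcinogen diethylnitrosamine (DEN) once, at 25 mg/kg on postnatal day 12, whereas normal livers were from untreated mice. A supplementary legend on mRNA levels in tumour and non-tumour tissues gives 3 mice a group. The labels name no animals, so which tumour belongs to which non-tumour liver is not known from them, and for normal livers p-values may measure only the spread between samples. Reads on genes, recovered from TPM and gene length, ranged from 11925055 to 20751348 per sample. Mir181a-1 was at 0 TPM in 17 of 18 samples and Mir181b-1 in 18 of 18, and since such libraries do not sample mature miRNAs these rows check no label. WT non-tumour liver 2 and WT tumour 3 stood apart from their groups, with Pearson's r of 0.929 to 0.933 and 0.919 to 0.921 with the other members of the group over log2 values of all genes. WT tumours 1 and 2 were the most alike pair of the series at r = 0.982.

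Ribosomal proteins assemble with ribosomal RNA into the small subunit, which reads the mRNA, and the large subunit, which joins amino acids. Each is needed in about the same amount, and in mammals their mRNAs share a start made of pyrimidines, the 5′ terminal oligopyrimidine (TOP) motif, through which mTOR signalling adjusts their translation. Their transcription rises with growth and with MYC activity, and unassembled Rpl5 and Rpl11 bind MDM2, the ubiquitin ligase of p53. Several are used as reference genes in PCR because their levels are taken to be steady.

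The start sites of members that the results turn on are shown because the TOP motif is what this family is known to share. RefSeq promoters on GRCm38.p6 held 57 of the 79 members. Each line gives the 15 bases before and the 15 from the annotated start on, 5′ to 3′, and capitals mark a C followed by at least 7 pyrimidines.
Rps6, chr4:86857353-86857382, minus strand: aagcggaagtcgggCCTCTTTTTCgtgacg
Rpl15, chr14:18270972-18271001, minus strand: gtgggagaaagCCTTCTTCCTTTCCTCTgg
Rpl38, chr11:114668565-114668594, plus strand: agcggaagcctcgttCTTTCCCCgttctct
Rps27l, upstream start, chr9:66946071-66946100, plus strand: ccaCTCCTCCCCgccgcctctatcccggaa
Rps27l, downstream start, chr9:66946398-66946427, plus strand: accatgggcttcagggtcactaacgggcct
Rps12, chr10:23787195-23787224, minus strand: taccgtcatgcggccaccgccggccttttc
Rplp0, chr5:115559452-115559481, plus strand: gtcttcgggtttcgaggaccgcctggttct
Rpl12, chr2:32961697-32961726, plus strand: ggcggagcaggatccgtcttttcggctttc

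Such a run lay within 15 bases of a start in 26 of the 57 members (45.6%) and in 2914 of all 27025 genes of the table (10.8%). The word CCGGAAG, searched on both strands over the 300 bases from 250 before to 50 after the start, was present in 23 of 57 members (40.4%) against 9.93% of all genes. It is the core word of ETS-family factors, and the mean GC content of those windows was 57.6% in the members and 53.8% in all genes. Rps6 and Rpl15 carried a run at the start, whereas Rps12, Rplp0 and Rpl12 did not have one in this window. The Rps12 window ends in a stretch of pyrimidines, which was not followed past the last base. The starts are those annotated, so a gene without a marked run may still have a TOP motif. Rpl3, Rpl23a and Rpl36 were not in the promoter table.

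Levels spanned more than 3 orders of magnitude, although 71 of the 79 members had a mean of at least 100 TPM and the median member mean was 414 TPM. The highest was Rplp1, an acidic protein of the stalk that recruits elongation factors, with a lowest value of 1877, a median of 2957 and a highest value of 4868 TPM over the 18 samples. Next came Rpl36 at a mean of 2387, Rps15 at 1750, Rpl17 at 1594 and Rpl38 at 1103 TPM. These 5 genes held 25% of the family's TPM. The 5 lowest members were Rpl12 (mean 13.3 TPM), Rpl32l (4.63), Rpl6l (3.68), Rpl24 (2.05) and Rps10 (1.95), and the last 2 were the members just inside the limit.

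**Figure D1:**
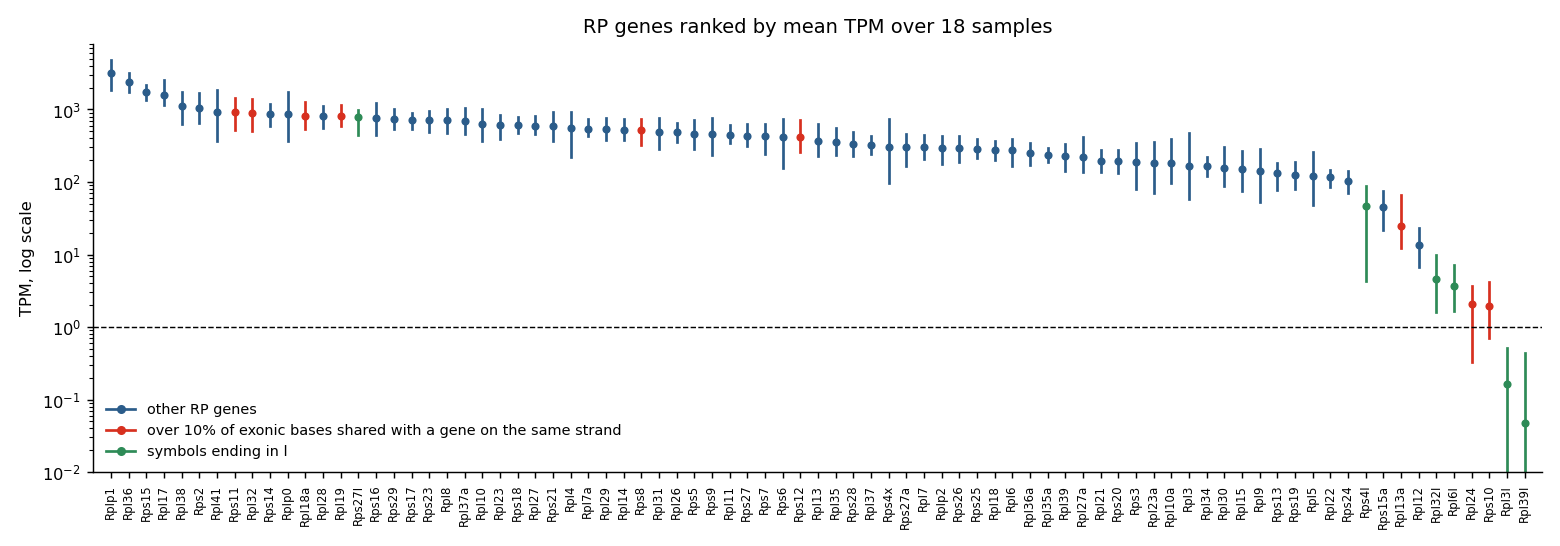
Mean TPM (points) and the range over 18 samples (lines) of the RP genes on a log axis, ordered by mean, with the limit of 1 TPM dashed and lines to the lower edge reaching 0. Rplp1 leads at 3145 TPM, 71 members lie at or above 100 TPM, and Rpl24 and Rps10 lie just above the limit while Rpl3l and Rpl39l lie below it. Rpl10l, at 0 TPM, is not drawn.

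The low members include genes whose exons overlap those of another gene on the same strand. Rpl24 (chr16:55966275-55971435 on mm10) shared 47% of its exonic bases with Gm28037, and Rps10 (chr17:27630418-27636669) shared 20.6% with RPS10-NUDT3. Rpl13a, at a mean of 25 TPM, shared 36.8% with Gm45713 and small RNA genes inside it. All 3 of these partner genes were listed at 0 TPM in 18 of 18 samples. For Rps10 the 4 pseudogene rows bearing its name summed to 50.9 TPM, and it was the 1 member of 59 with such rows whose pseudogenes exceeded it; the median share of the pseudogene rows was 1.84%. Rpl12 shared 3.61% of its exonic bases and had 6 genes with a near-identical copy (at least 95% identity over at least 80% of the coding sequence). Such a copy existed for 71 of the 76 coding members, with a median of 5 and up to 57 for Rpl21, so the level of a single member may depend on how reads were divided. Spearman's rho between mean TPM and the number of copies was -0.13 over the coding members, as a description. The part of shared exons and copies in the levels was not tested.

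Gene length entered the levels. The deposited TPM divided by the exonic length of all annotated transcripts, which was 2.21 times that of the coding transcript in the median member and ranged from 1.00 times for Rplp1 to 9.80 times for Rps15a. Reads per kilobase of coding transcript, scaled to the library's reads, gave an order with a Spearman rho of 0.801 to that by TPM over 76 members. Rps14, a protein of the small subunit platform, moved from 10th by TPM to the highest at 1733 on this scale, and Rpl35a moved from 54th to 11th. Rpl24 and Rps10 remained the lowest on both scales, at 1.60 and 3.55.

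The family as a whole took between 2.98% and 5.28% of all TPM and was higher in tumours. It held 3.23%, 2.98% and 3.96% in WT normal livers and 3.53%, 4.01% and 3.12% in GKO normal livers. In non-tumour livers it held 3.09%, 4.40% and 3.48% in WT and 4.17%, 3.16% and 3.43% in GKO mice. Tumours held 4.68%, 5.27% and 4.42% in WT and 5.28%, 5.13% and 4.51% in GKO mice. All 6 tumours were above all 12 other samples (4.42% against 4.40% at the closest), while the normal and non-tumour groups overlapped.

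**Figure D2:**
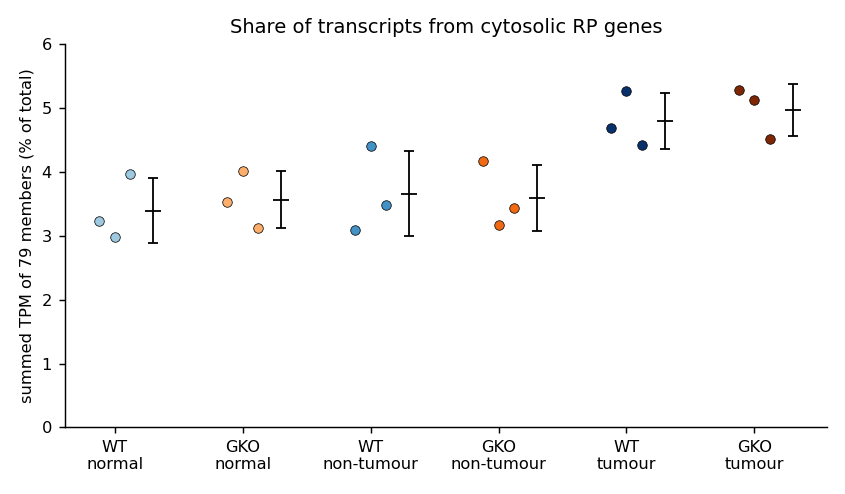
Summed TPM of the 79 members as a percentage of all TPM in each sample (points), with the mean and SD of each group of 3 beside them. The 6 tumours lie between 4.42% and 5.28%, and the 12 other livers between 2.98% and 4.40%.

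The mean share was 4.79% ± 0.436 in WT tumours and 3.66% ± 0.672 in WT non-tumour livers (SD, n = 3 each), 1.31 times as high. In GKO mice it was 4.97% ± 0.411 and 3.59% ± 0.522, 1.39 times as high. Small-subunit genes went from 1.37% to 1.73% in WT and from 1.37% to 1.88% in GKO mice, and the stalk genes Rplp0, Rplp1 and Rplp2 from 0.385% to 0.578% and from 0.335% to 0.597%. Transcripts of the mitochondrial genome were lower on average in tumours, with means of 6.60% and 4.88% of TPM in WT and 13.8% and 2.62% in GKO non-tumour livers and tumours. Without them in the total, the ratios of the family's share were 1.29 and 1.23, and the tumour and non-tumour ranges overlapped in both genotypes. As a share of recovered reads the ratios were 1.27 and 1.24, with an overlap in GKO mice only. The part of the mitochondrial share in the ratios was not tested beyond this. In bulk tissue, more RNA per cell and more cells of a type that holds more of it cannot be told apart.

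To ask how tumour tissue differed from the liver around it, tumours were compared with non-tumour livers within each genotype, using limma on log2(TPM + 1) over all genes whose mean reached 0.5 TPM. All 79 members were tested. In WT mice 73 of 79 members had a higher mean in tumours, the median log2 fold change of the members was 0.42, and that of all 14003 genes tested was -0.02. A single member passed an adjusted p of 0.05, Rps4l, which fell. The share called was 1.27% of the members and 4.23% of all genes (2.16% higher and 2.07% lower). With 79 members, a count of 0 called higher cannot be told apart from that share. At an unadjusted p under 0.05 there were 11 members, or 13.9%, against 19.9% of all genes. In 27 members every WT tumour was above every WT non-tumour liver, that is 34.2%, against 11.0% of all genes.

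In GKO mice 69 of 79 members had a higher mean in tumours, with a median log2 fold change of 0.52 in the members and 0.20 in all 14092 genes tested. There 7 members rose, namely Rpl3, Rplp0, Rps6, Rpl15, Rpl23a, Rpl12 and Rps12, and 0 fell. These are 8.86% of the members, near the 7.75% of all genes that were called higher (11.7% were called in either direction and 3.97% lower). At an unadjusted p under 0.05 there were 33 members, or 41.8%, against 31.7% of all genes. In 45 members (57.0%) every GKO tumour was above every GKO non-tumour liver, against 25.7% of all genes. The excess of the members' median over that of all genes was 0.44 in WT and 0.32 in GKO mice. Centring samples on their median shifts all genes of a sample alike, so it cannot change this excess. Under quantile normalization the excess was 0.573 in WT and 0.379 in GKO mice, and with voom on recovered reads 0.455 and 0.272. Under centring 59 members were higher and 20 lower in GKO tumours, and with voom 58 and 21.

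**Figure D3:**
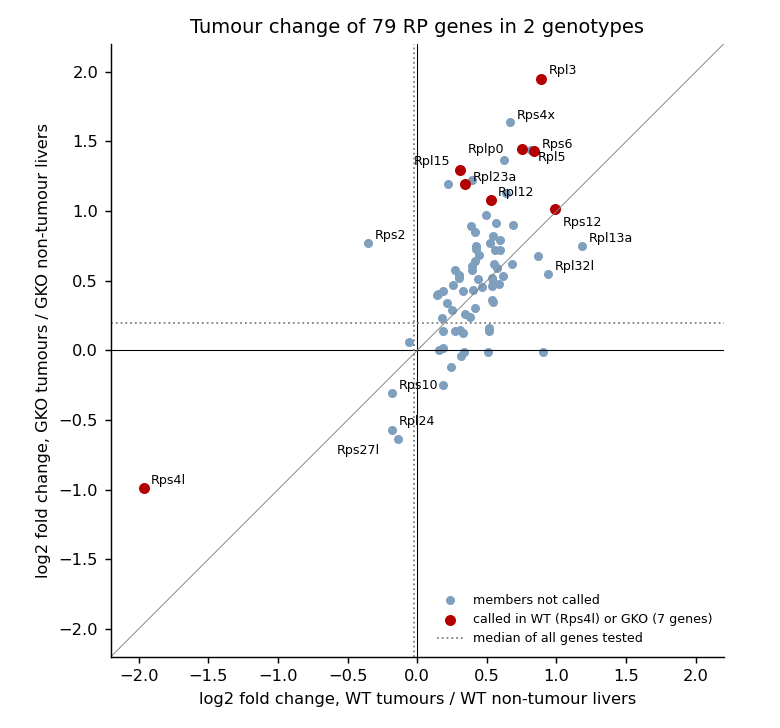
Log2 fold change of each of 79 members between tumours and non-tumour livers, WT on the x axis and GKO on the y axis, with called members in red, dotted lines at the median of all genes tested and a line of equal change. Most members lie above 0 in both genotypes, Rpl3 is highest in GKO mice at 1.95, and Rps4l is lowest in both.

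Over the 79 members, 67 were higher in tumours of both genotypes and 4 were lower in both. Pearson's r between the 2 sets of fold changes, which share no samples, was 0.604 over the members and 0.665 over the 13377 genes tested in both, a description across genes that are not independent. Small- and large-subunit members had close medians, of 0.419 and 0.416 in WT and 0.542 and 0.514 in GKO mice. Members with a run of pyrimidines within 15 bases of a start had medians of 0.327 in WT and 0.501 in GKO mice (26 genes). Those without had 0.399 and 0.592 (31 genes). Such a run could end before the start, as in Rps27l, and the stretch in Rps12 that reaches the window's edge was not counted.

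The 7 members that rose in GKO tumours belong to both subunits. Rpl3 (chr15:80077791-80091868), which lies next to the peptidyl transferase centre, was at 168, 57.6 and 76.1 TPM in GKO non-tumour livers and 479, 274 and 331 TPM in GKO tumours. All 3 tumours were higher, and the log2 fold change was 1.95 (SE 0.43, limma adjusted p = 0.0314). In WT mice the values were 74.8, 206 and 119 TPM against 214, 200 and 275 TPM, where the groups overlapped through non-tumour liver 2 and the change was 0.89 (SE 0.39, limma adjusted p = 0.267).

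Rplp0, the base of the stalk and a common PCR reference, was at 857, 373 and 524 TPM in GKO non-tumour livers and 1733, 1420 and 1373 TPM in GKO tumours. The change was 1.44 (SE 0.34, limma adjusted p = 0.0369). WT tumours at 1129, 1221 and 1457 TPM were also all above WT non-tumour livers at 471, 1114 and 799.8 TPM, with a change of 0.75 that missed the threshold (SE 0.35, limma adjusted p = 0.301). The other stalk genes were not called: Rplp1 differed by 0.59 and 0.72 and Rplp2 by 0.61 and 0.53 on the log2 scale in WT and GKO mice.

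Rps6, the small-subunit protein phosphorylated by S6 kinases downstream of mTOR, was at 398, 176 and 241 TPM in GKO non-tumour livers. GKO tumours held a narrow 675, 692 and 709 TPM. The change was 1.43 (SE 0.32, limma adjusted p = 0.0341). WT tumours reached a like level of 739.8, 684 and 575 TPM from 271, 453 and 412 TPM, and the WT change was 0.84 (SE 0.28, limma adjusted p = 0.165). Rps12, in the beak of the small subunit, had nearly equal changes in both genotypes, 0.99 in WT (adjusted p = 0.111 with limma) and 1.01 in GKO mice (adjusted p = 0.0368), from 257.5 to 369.6 TPM in the 6 non-tumour livers to 464 to 724 TPM in the 6 tumours, with no overlap in either genotype.

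Rpl15, a core protein of the large subunit, went from 136, 77.1 and 95.9 TPM to 249, 222 and 272 TPM in GKO mice, a change of 1.29 (SE 0.27, limma adjusted p = 0.0274). Rpl23a, at the exit of the peptide tunnel, went from 157, 81.8 and 125 to 243, 232 and 342 TPM, a change of 1.19 (SE 0.31, limma adjusted p = 0.0486). Rpl12, part of the stalk base, went from 12.9, 8.19 and 8.79 to 21.7, 21.5 and 22.1 TPM, a change of 1.08 (SE 0.23, limma adjusted p = 0.0274). In WT mice these 3 genes overlapped between tumours and non-tumour livers: WT tumour 3 was the lowest tumour for each, at 138, 159.6 and 9.76 TPM, and the WT changes were 0.31, 0.34 and 0.53. The difference of the change between genotypes was tested for all members as an interaction and 0 of 79 were called by limma, at 0.0142% of all genes, and 0 were called with voom. At an unadjusted p under 0.05 there were 2 members, Rps2 and Rpl15, or 2.53% against 10.5% of all genes. The differences were largest for Rps2 (1.13), Rpl3 (1.06) and Rpl15 (0.98) and lowest for Rpl6l (-0.92), Rpl26 (-0.52) and Rps27l (-0.50). The median over the members was 0.10 against 0.23 over all genes, and 47 members were above 0, or 29 after centring.

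**Figure D4:**
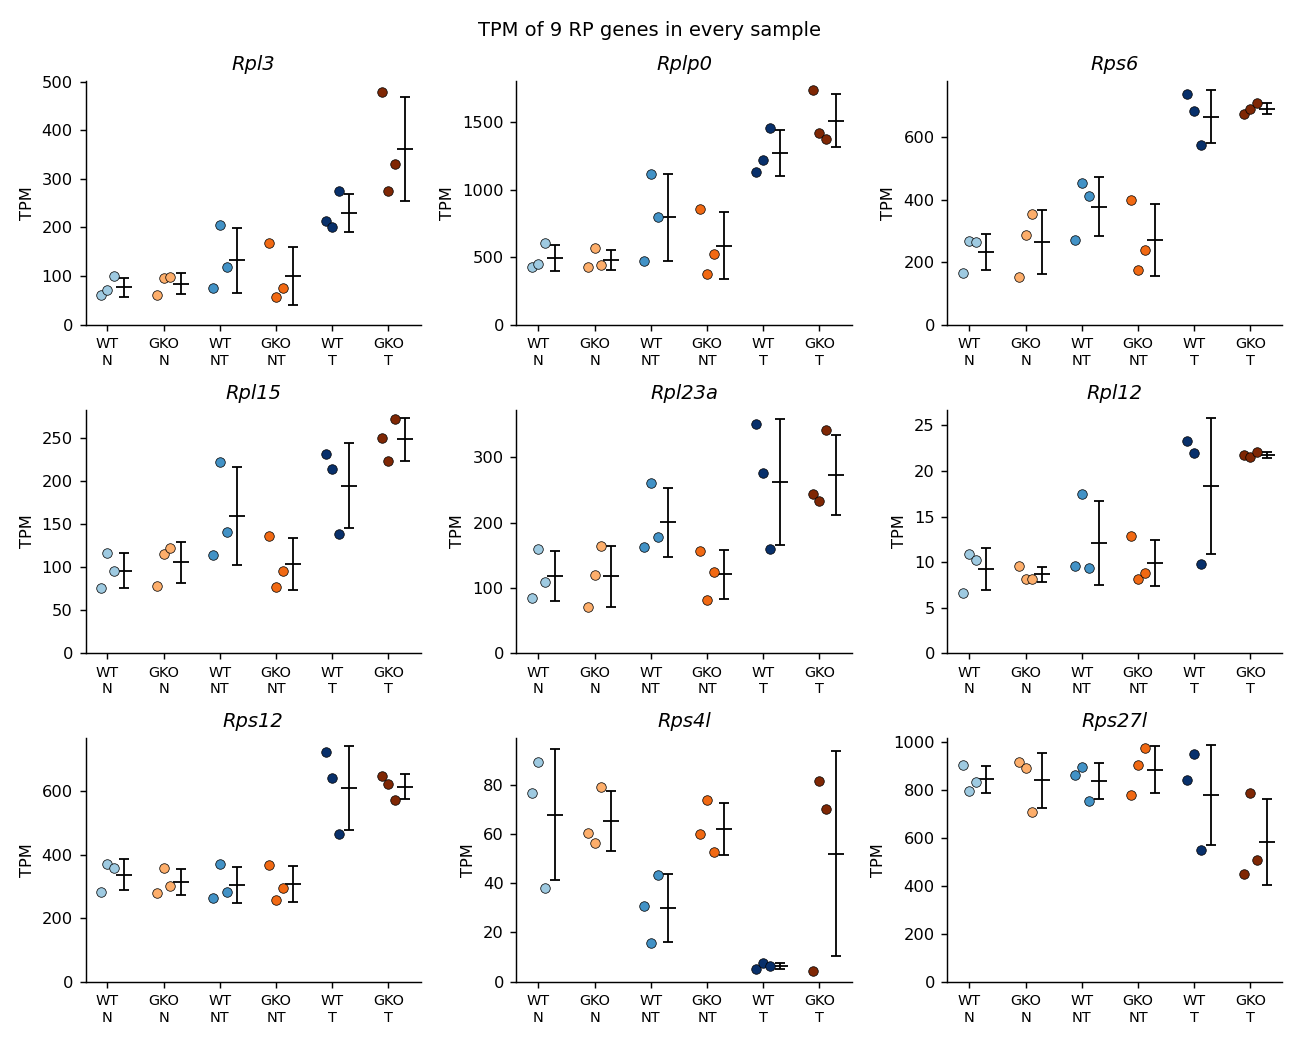
TPM of 9 members in every sample (points, with mean and SD of each group of 3 beside them) in normal livers (N), non-tumour livers (NT) and tumours (T) of WT and GKO mice. The 7 members called in GKO tumours are higher there than in each GKO non-tumour liver, Rps4l lies between 4.36 and 7.62 TPM in the WT tumours and GKO tumour 1, and Rps27l is not raised in tumours.

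These calls rested on few libraries. Leaving out GKO non-tumour liver 2 or 3, or GKO tumour 1 or 3, left 0 members called, and leaving out GKO tumour 2 left 2, Rpl15 and Rpl3. Without GKO non-tumour liver 1, which held the highest GKO non-tumour value of each of the 7 genes, 19 members were called, the 7 among them. The fold changes of the 7 stayed positive under all 15 alternatives, with a lowest value of 0.77 for Rps12 and a highest of 2.39 for Rpl3.

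Members next in size that missed the threshold in GKO mice were Rps4x (1.64, SE 0.48, limma adjusted p = 0.0661) and Rpl5 (1.44, SE 0.39, limma adjusted p = 0.0547). Rpl5, the partner of Rpl11 and 5S rRNA in binding MDM2, was at 145, 53.5 and 60.8 TPM in GKO non-tumour livers and 244, 189.8 and 207 TPM in GKO tumours. Rpl11 stayed at 476, 391 and 430 against 548, 403 and 484 TPM, a change of 0.14 with overlapping groups. In WT mice Rpl5 differed by 0.82 and Rpl11 by 0.19, and the difference between these 2 partners was not tested. The largest WT changes upward were those of Rpl13a (1.18, SE 0.34), Rps12 and Rpl32l (0.94, SE 0.30), and 0 of these 3 were called, with limma adjusted p = 0.118, 0.111 and 0.153.

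Rps4l was the member that went furthest in the opposite direction. This transcribed pseudogene (chr6:148354656-148355598) was at 30.7, 15.6 and 43.5 TPM in WT non-tumour livers and at 5.13, 7.62 and 6.49 TPM in WT tumours, a log2 change of -1.96 (SE 0.38, limma adjusted p = 0.0386). GKO non-tumour livers held 60.1, 73.6 and 52.8 TPM, and the GKO tumours split into 4.36 TPM in tumour 1 and 81.4 and 70.3 TPM in tumours 2 and 3. The GKO change was -0.99 (SE 0.96, limma adjusted p = 0.501) and became 0.29 without tumour 1. Normal livers ranged from 37.9 to 89 TPM. Its 20.4-fold range over the 18 samples was the widest of the members, followed by 11.1-fold for Rpl24 and 8.32-fold for Rpl3. The WT value stayed negative under all 16 alternatives, from -2.35 to -1.64, and was called under 6 of them, with limma adjusted p from 0.0112 to 0.159. The call was lost without WT non-tumour liver 1 or 3, without WT tumour 1 or 2, and with WT tumours 1 and 2 averaged as 1 sample. It was also lost without the filter, after quantile normalization, with all samples in 1 fit, with the replicate block and with voom. Without WT tumour 3 there were 3 calls, Rps4l, Rps12 and Rpl13a.

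A few other members had lower means in tumours. Rps27l, a p53-responsive relative of Rps27, was at 861, 896 and 752 TPM in WT non-tumour livers and 841, 949 and 547 TPM in WT tumours. In GKO mice it was at 777, 903 and 973 against 451, 789 and 508 TPM, a change of -0.64 (SE 0.28, limma adjusted p = 0.167). Rpl24 (-0.57 in GKO mice, limma adjusted p = 0.11) and Rps10 (-0.30, limma adjusted p = 0.387) never exceeded 4.12 TPM, and both differed by -0.18 in WT mice. Rps2 differed by -0.35 in WT and 0.77 in GKO mice (limma adjusted p = 0.492 and 0.114). Rpl36 was at 2349, 2997 and 2359 TPM in GKO non-tumour livers and 2100, 2336 and 2021 TPM in GKO tumours, a change of -0.25 (limma adjusted p = 0.477). Rpl24 was called in 1 of 14 alternatives, centring on the sample median (limma adjusted p = 0.0406).

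The change in tumours varied with transcript length. Spearman's rho between the log2 fold change and the length of the coding transcript over 76 members was 0.345 in WT and 0.421 in GKO mice, as a description across genes that share libraries and depth. The 33 members with a coding transcript of at least 800 bases had medians of 0.53 and 0.64, and the 12 members under 500 bases had 0.29 and 0.07. Over all genes tested, rho with the exonic length of all annotated transcripts was 0.0136 in WT and 0.114 in GKO mice. This is another measure of length, so these values cannot be set directly against those of the members. Rpl38, Rpl36 and Rplp1 are among the short members, with Rpl38 at 1011, 1418 and 1004 TPM in GKO non-tumour livers and 1269, 1338 and 785 TPM in GKO tumours. Not every short member changed less: the changes of Rplp1, given above, exceeded the medians of both length classes in each genotype.

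**Figure D5:**
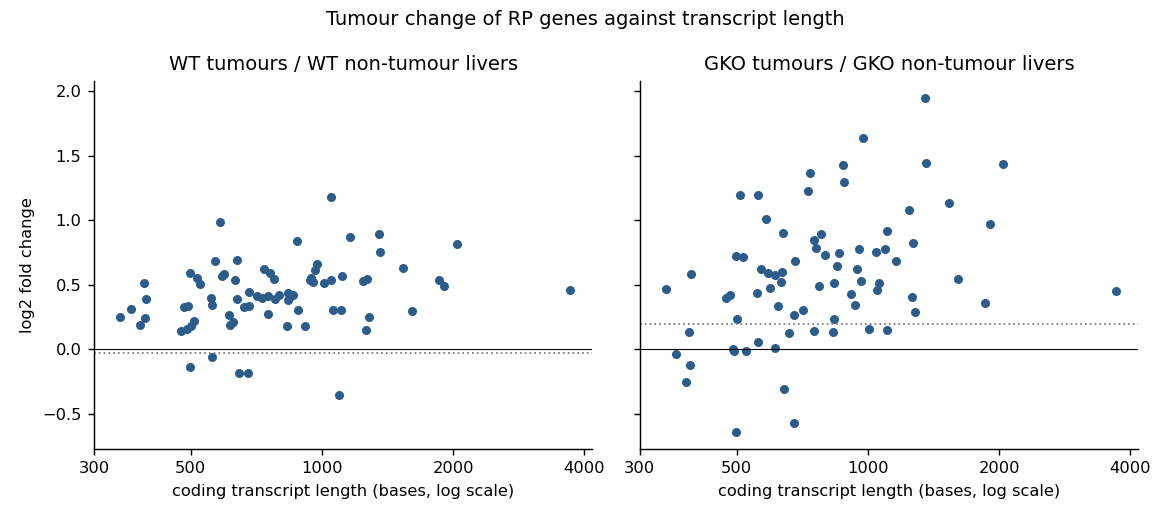
Log2 fold change between tumours and non-tumour livers of 76 members with a coding transcript (y axis) against the length of that transcript in bases (x axis, log scale), in WT (left) and GKO mice (right), with the median of all genes tested dotted. Members with short transcripts tend to lie lower, with medians of 0.29 and 0.07 under 500 bases against 0.53 and 0.64 from 800 bases on.

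To ask what the deletion did to the family, GKO and WT samples of the same tissue were compared. In tumours 46 of 79 members were higher in GKO mice, with a median log2 fold change of 0.06 (0.09 over all genes), and 0 were called by limma or with voom, at 0.0215% of all genes. At an unadjusted p under 0.05 there were 2 members, Rps2 (0.55) and Rpl6l (-0.78), or 2.53% against 8.87% of all genes, and in 73 members the change was under 0.5 in size, with a median SE of 0.235. Groups did not overlap in 8 members (10.1%, against 14.7% of all genes). Rps2, a protein of the mRNA entry site, was at 953, 1087 and 1014 TPM in tumours of WT mice and at 1585, 1250 and 1662 TPM in those of GKO mice (limma adjusted p = 0.544). The widest difference was that of Rps4l (2.11, SE 0.99, limma adjusted p = 0.585), and it was called once GKO tumour 1 was left out (3.38, adjusted p = 0.0315). Rpl3 was higher by 0.63 and Rpl41 by 0.56, while Rpl13a was lower by 0.51 and Rps27l by 0.42 (values of -0.51 and -0.42), all without a call.

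Non-tumour livers gave a median of -0.07 over the members and -0.15 over all genes, with 0 members and 0% of genes called by limma, 0 members with voom and 1 member, Rps4l, at an unadjusted p under 0.05 (1.27%, against 5.80% of all genes). Rps4l was at 30.7, 15.6 and 43.5 TPM in WT and 60.1, 73.6 and 52.8 TPM in GKO mice, a change of 1.13 (SE 0.38, limma adjusted p = 0.643). Behind it came Rpl24 (0.53) and Rps10 (0.51) upward and Rpl23a (-0.74), Rpl15 (-0.61) and Rps2 (-0.58) downward. Groups did not overlap in 7.59% of the members and 13.2% of all genes. The number of members with a higher mean in GKO mice was 35 of 79, and 58 of 79 once samples were centred, so no direction of the family held here. Normal livers differed least: all 79 members differed by under 0.5 in size, from -0.16 for Rplp2 to 0.30 for Rps10, with Rpl32 at 0.30, Rpl31 at 0.28, Rpl41 at -0.12 and Rps12 at -0.10, the median was 0.03 (0.06 over all genes), and limma called 0 members and 0% of genes, with 0 members at an unadjusted p under 0.05, against 3.96% of all genes, and 0 with voom. In 0 members the groups did not overlap, against 7.95% of all genes. There 60 members were higher in GKO mice, but 24 after centring.

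Non-tumour livers after DEN were compared with normal livers to see how the family stood outside the tumours. These livers also bore tumours, so DEN exposure and the presence of tumours cannot be told apart. In WT mice 58 of 79 members were higher in non-tumour livers, at a median of 0.15 that lay below the 0.325 of all genes, and after centring 20 were higher and the median was -0.22. Limma called 0 members, at 0.00744% of all genes, with 5 at an unadjusted p under 0.05 (6.33%, against 24.4% of all genes) and 0 called with voom. Those 5 were Rps3 (0.78), Rpl23a (0.78), Rps2 (0.76), Rps6 (0.70) and Rps4l (-1.18), with Rpl6l (-0.51) and Rps28 (-0.46) the next lowest. In 11.4% of the members the groups did not overlap, against 33.9% of all genes. Rps3, a repair-linked protein of the mRNA entry site, and the others were not called. In GKO mice every member differed by under 0.5 in size, from -0.31 for Rpl6l to 0.38 for Rps10, with Rps15 at -0.18, Rpl27a at -0.15, Rps3 at 0.33 and Rpl24 at 0.31. The median was 0.05, limma called 0 members and 0% of genes, 0 members had an unadjusted p under 0.05, against 5.20% of all genes, and 0 were called with voom, and the groups of 0 members did not overlap, against 8.73% of all genes. Of the 79 members 55 were higher, and 25 after centring.

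Members used as PCR references differed in steadiness. The coefficient of variation over the 18 samples was 15% for Rps18 and 15.5% for Rpl19, 31.1% for Rpl32, 51.8% for Rplp0 and 54% for Rpl13a, and its median over the members was 26.9%. The Rpl13a row was among the low ones and shares exons with other genes, as given above. Whether its spread would be seen in PCR was not tested. Rps18, at the head of the small subunit, was at 502, 684 and 494 TPM in WT non-tumour livers, and 495, 601 and 507 TPM in WT tumours. In GKO mice it was at 628, 630.1 and 662 TPM in non-tumour livers and 685, 703.5 and 617 TPM in tumours, with changes of -0.06 and 0.06. Rpl19 differed by 0.27 and 0.14. Rpl32 differed by 0.56 and 0.72 and was not called (limma adjusted p = 0.338 and 0.11). Outside the family, Hprt varied by 17%, B2m by 20.1%, Gapdh by 31% and Actb by 34.7%, and of 13 such reference genes Gusb (1.32, SE 0.32, limma adjusted p = 0.0415) and Ppia (0.97, SE 0.25, limma adjusted p = 0.0499) rose in GKO tumours. In that comparison 7.75% of all genes were called higher.

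The symbol rule leaves out other genes of the ribosome. Among these are Fau, Rack1, Rpl22l1, Rpl36al, Rpl7l1, Rps3a1 and Rpsa, with median changes of 0.42 in WT and 0.63 in GKO tumours over the 7 genes. Rpl22l1, the paralog of Rpl22, rose in GKO tumours to 79.9, 54.4 and 48.3 TPM from 23.6, 12.5 and 15.3 TPM (1.78, SE 0.31, limma adjusted p = 0.0161) while WT tumours held 43.4, 48.2 and 38 TPM and WT non-tumour livers 16.6, 55.6 and 20.7 TPM. Rack1, the signalling scaffold of the small subunit, differed by 0.61 and 0.93 (limma adjusted p = 0.251 and 0.0532), Rpsa by 0.80 and 0.43, and Rps3a1 by 0.40 and 0.79. Rpl36al differed by 0.42 and 0.47, Rpl7l1 by -0.03 and 0.63, and Fau by -0.16 and 0.14. Rps27a, a ubiquitin fusion inside the family, differed by 0.39 and 0.60.

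Other lists tied to the ribosome were counted in the same fits. Of all genes tested, 7.75% were called higher and 3.97% lower in GKO tumours, and 2.16% and 2.07% in WT tumours. The lists were not tested against these shares, and a few calls in a list are no result about it. Of 25 further TOP mRNAs, mostly translation factors, 2 rose in GKO tumours, the elongation factor subunit Eef1b2 (1.46, SE 0.34) and the intermediate filament gene Vim (2.11, SE 0.30), which is no translation factor and marks mesenchymal cells, and 1 fell in WT tumours, the helicase Eif4a2 (-1.28, SE 0.24). Their medians were 0.19 in WT and 0.73 in GKO mice. Of 91 ribosome biogenesis factors 0 were called in WT and 3 rose in GKO tumours, led by Nol11 (0.98) and Nol9 (0.87), with medians of 0.01 and 0.30. Of 15 subunits and cofactors of RNA polymerase I, Taf1b rose in GKO tumours (1.01, SE 0.21). Of 25 regulators of RP and TOP genes Mycl, a MYC family gene, rose in both, by 1.81 (SE 0.36) in WT and 1.89 (SE 0.45) in GKO tumours. Of 9 snoRNA host genes with a TOP start Snhg5 (0.94) rose and Snhg20 (-1.09) and Snhg8 (-0.88) fell in GKO tumours. In GKO tumours against non-tumour livers 76 mitochondrial ribosomal protein genes had a median of 0.20 with 1 higher, and 81 oxidative phosphorylation subunits had a median of -0.26 with 1 higher and 5 lower. In WT mice these medians were -0.10 and -0.37, with 0 called by limma in either list. The 37 proteasome subunits had medians of -0.16 and 0.17 and 2 calls, both higher in GKO tumours.

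Markers of other cells and of cycling cells were summed in the same samples. Proliferation markers were higher in tumours, with medians of 1.46 in WT and 1.32 in GKO mice, and 16 of 23 rose in GKO and 1 of 24 in WT tumours. Of all genes tested, 7.75% were called higher in GKO and 2.16% in WT tumours. The summed level of proliferation markers was 43.2 to 193 TPM in WT non-tumour livers and 69.6 to 431 TPM in WT tumours, and 28.1 to 47 and 110 to 262 TPM in GKO mice. Hepatocyte markers summed to 63700 to 92100 TPM in the 6 non-tumour livers and 175000 to 211000 TPM in the 6 tumours, with none of the 10 at 0. The sum hides members that moved apart: Alb rose in both genotypes (1.40 in WT and 2.00 in GKO mice) and Apoa1 in GKO tumours (1.38), while Cyp3a11 fell in WT tumours (-3.25) and was at -1.55 in GKO tumours without a call. Of the 10 genes, 7 had a higher mean in tumours of each genotype, with medians of 0.33 and 0.44. Macrophage markers summed to 290 to 1430 TPM in non-tumour livers and 215 to 608 TPM in tumours, T cell markers to 7.36 to 34.3 and 4.55 to 32.3 TPM, B cell markers to 26.1 to 238 and 19.8 to 163 TPM, and erythroid markers to 379 to 828 and 344 to 1100 TPM. Endothelial markers summed to 83.5 to 165 and 135 to 194 TPM, fibroblast markers to 72.2 to 180 and 71.5 to 263 TPM, and cholangiocyte markers to 37.7 to 84.8 and 32.6 to 971 TPM. No listed marker was at 0 in every sample. The part of cell composition in the members' changes was not tested.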

How the data were processed

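The authors sequenced Trizol-extracted liver RNA on Illumina HiSeq, aligned reads with STAR 2.7.3a to mm10 and counted them with featureCounts 2.0.0, per the study's methods and the submitters' processing notes. They deposited 1 table of TPM with 54838 gene rows and 18 samples. The annotation and the way TPM was computed are not given in the sources used here. Symbols listed more than once numbered 101.

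Gene IDs were matched to GENCODE M21 (54809 rows), and whole reads were recovered from TPM and exonic length, with 97.95% to 98.67% of values up to 30 reads within 0.02 of a whole number. Depth was 11925055 to 20751348 reads on genes per sample. Each comparison was fitted on its own 6 samples (12 for the interaction) with limma 3.58.1 in R 4.3.3, by lmFit and eBayes with a trend on log2(TPM + 1), keeping rows averaging 0.5 TPM or more in the samples of the fit. Benjamini-Hochberg adjustment ran over all genes tested, and adjusted p under 0.05 is called. A fold change on this scale understates that of low genes. Summed shares, a score over members chosen by level, are described without a test. The scripts were tested on simulated data. Copies were found with blastn 2.17.0.

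Fits were repeated without the filter or with a limit of 5 TPM, after median centring or quantile normalization, with a pseudocount of 0.1, without the trend, on all samples in 1 fit, with the replicate number as a block, with voom on recovered reads and without each sample in turn. WT tumours 1 and 2 averaged, shares of reads, a total without the mitochondrial genome and lengths of coding transcripts were added after seeing the data. GKO and WT tumours of the same replicate number had weakly correlated deviations from their group means (r = 0.101, 0.120 and 0.197). They come from different mice and the labels name no pairs, so this does not show a pairing.

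Named members were the 5 highest and lowest by mean, those next to the limit, paralogs, stalk genes, Rps27a, PCR references, Rps6, Rpl5, Rpl11, called members or the 3 largest changes of a direction, and the 3 widest ranges. Members and lists were chosen with earlier results of these data known. An item is not reported here.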

Additional observations from a re-analysis of the deposited data

Results flagged for a closer look

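Rpl3l, the striated muscle paralog of Rpl3, lay below the limit of 1 TPM and entered no comparison, yet its mean was 0.4171 TPM in WT non-tumour livers, 0.282 TPM in GKO non-tumour livers and 0.1925 TPM in GKO tumours. These groups drew attention because each of their samples was above all 6 normal livers, the highest of which held 0.0896 TPM. The recovered reads were 7, 3 and 7 in WT non-tumour livers, 4, 3 and 4 in GKO non-tumour livers, and 2, 3 and 3 in GKO tumours. Normal livers had 1, 0 and 0 reads in each genotype, and WT tumours had 0, 1 and 0. Most of these counts are close to the 3 reads that a count of 0 allows, so the differences rest on few reads and were not tested.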

How the results depend on the processing

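The number of members called depended on the setting, and where it did the cause was not tested. In GKO tumours against GKO non-tumour livers, 7 members became 0 without the filter, 14 under quantile normalization and 21 with all samples in 1 fit, and 0 to 19 when a sample was left out. In WT tumours against WT non-tumour livers, 1 member became 0 without the filter, 0 with the replicate block, 0 with voom, 0 with WT tumours 1 and 2 averaged and 3 with all samples in 1 fit, and 0 to 3 when a sample was left out. The gene differed too: Rps4l was not among the 3, which were Rpl13a, Rpl27a and Rps12, all higher, and under quantile normalization the 1 call was Rps12, higher. In GKO against WT tumours the count was 0 to 1 when a sample was left out.

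The replicate number as a block gave 8 calls in GKO tumours against non-tumour livers, of which 5 were among the 7, and each GKO sample correlated best with its own number there (r = 0.124, 0.069 and 0.041). In GKO against WT tumours, which the labels do not pair, the block left 0 members called, and outside these comparisons and the WT one above it changed no count of calls.

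The median member log2 fold change in GKO tumours was 0.288 under median centring and 0.283 with voom, and in WT non-tumour against normal livers it was -0.222 under median centring. The change of Rps4l in GKO tumours ranged from -1.679 to 0.292 when a sample was left out, the latter without GKO tumour 1.

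Mean shares of the total without the 20 highest genes were 6.35% and 6.62% in WT and GKO normal livers, 5.85% and 6.44% in non-tumour livers, and 8.36% and 8.29% in tumours. As a percentage of recovered reads they were 2.68% and 2.77%, 2.63% and 2.77%, and 3.35% and 3.44%. Without the mitochondrial genome they were 3.97% in WT normal, 4.13% in GKO normal and 4.16% in GKO non-tumour livers. Of the other recomputed counts, medians and shares, 268 stayed close to the main value. For counts of calls this meant equal or within 1.5 times, and for medians and shares a move smaller than the SD between samples. A median could change its sign within that limit, as in GKO against WT non-tumour livers under centring (-0.067 to 0.098). Of single genes, 391 values kept their direction and their side of the threshold, 54 lost and 16 gained a call, and 1 reversed.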
